A study of Mus musculus with 9 samples.

Results

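Transcripts of 9 complement genes were followed in cultured mouse primary macrophages under 3 oxygen conditions. The genes were those with the symbols C1qa, C1qb, C1qc, C3, Cfb, Cfp, C3ar1, C5ar1 and Itgam, and each of the 9 was found by its Ensembl identifier among the 34866 identifiers of the deposited tables. Messenger RNA was sequenced from 9 samples in 3 groups of 3 replicates. Standard oxygen cultures were kept there for 7 days. Acute hypoxia means that cells from standard oxygen spent a last 3 hours in 1% oxygen, and chronic hypoxia that the 7 days were all spent in 1% oxygen. The medium of every group was alpha-MEM with serum and with conditioned medium from L929, a mouse fibroblast line whose medium carries a growth factor for macrophages. The mouse strain, sex, age and tissue of origin are not given in the sources used here, and neither is whether a replicate was 1 animal or a pool. The study was titled as one of metabolic adaptation and efferocytosis (the engulfment of dying cells) in limited oxygen. Expression is given in TPM, a length-corrected share of a library that allows levels of different genes to be compared.

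Complement is a cascade of plasma proteins that marks particles, cells and debris for removal. C1q, built from the A, B and C chains that C1qa, C1qb and C1qc encode, binds antibody complexes and dying cells and starts the classical pathway. C3 is the protein on which all pathways converge, and its fragments coat targets. Factor B (Cfb) forms the alternative pathway convertase with C3b, and properdin (Cfp) stabilises that convertase. C3ar1 and C5ar1 encode the receptors for the small fragments C3a and C5a, and Itgam encodes the alpha chain of complement receptor 3 (CD11b), which binds the C3 fragment iC3b. Macrophages make much of the C1q of the body, whereas the liver is the main source of most other components.

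Libraries of different groups share digits in their descriptions, called here the sample code, with 1 library of each code (X, Y and Z) in each group. What the code stands for is not stated. The code Z libraries stood apart from the others along the first principal component of 11065 genes (36.9% of the variance, scores of 29.4 to 43.3 against -25.0 to -11.3). Deviations from the group means correlated within code pairs in each comparison (Pearson r of 0.37 to 0.63 across genes, which are not independent replicates). Fits with the code as a block are therefore given beside those without one. With code Z apart, centring moves codes X and Y the same way, so r cannot show that X and Y were each paired. The depth of the libraries is unknown, because TPM keeps no read totals, and the number of genes at 1 TPM or more ran from 10724 to 11208. Of 9 macrophage markers, 8 were above 10 TPM in all libraries, the exception being Mertk at 2.21 to 3.37 TPM in the code Z libraries and 21.8 to 33.3 TPM in the others. The 4 dendritic cell markers together reached at most 0.266 TPM, the 5 lymphocyte markers at most 0.296 TPM and the 5 fibroblast markers at most 0.218 TPM. The monocyte markers, of which Ly6c2 was the most abundant, summed to 197 to 977 TPM in the code Z libraries and to 43.1 to 80.0 TPM in the others. Of 8 neutrophil markers, S100a8 alone was above 10 TPM (258 to 1906 TPM), while its partner S100a9 was listed at 0 in every library but standard oxygen code Z (0.231 TPM). An exact 0 in these tables can thus be a failed estimate.

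Cfp and Itgam were the most abundant of the 9 genes, with means over all libraries of 624 and 615 TPM, and Cfb the least abundant with 4.31 TPM. Between these lay C5ar1 (489 TPM), C1qb (413 TPM), C3ar1 (347 TPM), C1qc (278 TPM), C1qa (111 TPM) and C3 (73.9 TPM). The ranges over the 9 libraries of neighbours in this order overlapped, except for C3 (55.6 to 99.3 TPM) and Cfb (2.74 to 6.35 TPM). All 9 genes passed the filter of a mean of 1 TPM in each comparison. Within a library, Cfp ranked between 158 and 287 by TPM among all listed genes and Itgam between 198 and 272. C1qb ranked between 144 and 305 in the code X and Y libraries and between 4353 and 4993 in the code Z libraries.

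In GRCm38 coordinates from GENCODE release M21, C1qb (chromosome 4, 136880129 to 136886187), C1qc (136889804 to 136893065) and C1qa (136895917 to 136898803) lie in a row on the minus strand. C3 (57203970 to 57228136) and Cfb (34856374 to 34862518) are on chromosome 17, Cfp (20925454 to 20931555) on chromosome X, C3ar1 (122847138 to 122856161) on chromosome 6, and C5ar1 (16246743 to 16259540) and Itgam (128062640 to 128118491) on chromosome 7. All 9 are protein-coding. The exons of Cfb shared 79.5% of their bases with Gm20547, a gene model on the same strand that runs across Cfb and the C2 locus and was listed at 0 to 0.114 TPM. The exons of Itgam shared 68.7% of their bases with Gm49368, listed at 2.04 to 14.0 TPM. Reads in these stretches cannot be assigned with certainty, and how they were counted is not stated, so the levels of Cfb and Itgam are uncertain. The other 7 genes shared no exon bases and no 75-base stretch with another listed gene.

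RefSeq promoter windows (GRCm38.p6) were found for 7 of the 9 genes, all but C1qa and Cfb. Printed are the windows of C1qb, C1qc, C3, Cfp and Itgam, the genes with a window among those higher in chronic hypoxia in 3 of 3 code pairs, and 3 of these windows hold a motif searched for. They run 5′ to 3′ on the gene's strand over the 250 bases before the RefSeq start, except that for C1qc only the first 99 bases are printed, which lie before the annotated exons. Capitals mark matches to GCGTG (a core of the hypoxia response element) or to GAGGAAG (a core bound by PU.1, a macrophage transcription factor), on either strand.
C1qb, chr4:136886201-136886450, minus strand: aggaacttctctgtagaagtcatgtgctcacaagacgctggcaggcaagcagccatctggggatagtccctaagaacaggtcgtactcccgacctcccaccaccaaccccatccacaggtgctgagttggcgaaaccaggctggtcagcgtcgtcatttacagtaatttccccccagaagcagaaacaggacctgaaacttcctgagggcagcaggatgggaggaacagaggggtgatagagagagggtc
C1qc, chr4:136893066-136893164, minus strand: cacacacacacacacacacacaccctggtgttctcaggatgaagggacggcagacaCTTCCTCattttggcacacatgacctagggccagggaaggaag
C3, chr17:57228137-57228386, minus strand: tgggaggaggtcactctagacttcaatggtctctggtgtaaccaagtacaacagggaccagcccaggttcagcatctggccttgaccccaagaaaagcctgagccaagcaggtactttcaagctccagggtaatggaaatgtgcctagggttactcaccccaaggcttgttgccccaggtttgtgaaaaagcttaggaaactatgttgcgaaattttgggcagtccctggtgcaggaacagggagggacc
Cfp, chrX:20931556-20931805, minus strand: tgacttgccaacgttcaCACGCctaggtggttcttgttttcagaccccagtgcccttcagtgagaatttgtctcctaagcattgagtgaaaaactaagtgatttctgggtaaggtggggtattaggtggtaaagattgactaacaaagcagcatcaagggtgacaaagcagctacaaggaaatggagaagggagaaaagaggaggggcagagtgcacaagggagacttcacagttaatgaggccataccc
Itgam, chr7:128062390-128062639, plus strand: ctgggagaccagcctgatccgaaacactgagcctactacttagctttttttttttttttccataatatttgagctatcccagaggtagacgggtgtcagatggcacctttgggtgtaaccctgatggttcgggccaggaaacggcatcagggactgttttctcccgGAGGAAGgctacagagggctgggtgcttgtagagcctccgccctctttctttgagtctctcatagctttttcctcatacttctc
The core ACGTG was in 0 of the 7 windows and in 16.6% of 32851 promoter windows of the same length. GCGTG was in 1 of the 7 (Cfp, on the opposite strand, beginning 233 bases before the start) and in 28.2% of all. GAGGAAG was in 2 of the 7 (C1qc, on the opposite strand, 194 bases before the start, and Itgam, 84 bases before it) and in 10.6% of all. These matches describe the letters in a window and say nothing of binding.

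Acute hypoxia was compared with standard oxygen to ask what 3 hours in 1% oxygen do to these transcripts. None of the 9 genes passed an adjusted p of 0.05 in limma (Benjamini-Hochberg over all genes tested), without a block or with the code block, and 0 of the 9 had an unadjusted p under 0.05 in either fit. Over all 10987 genes tested, 0.0273% were called without a block and 0.71% with it, and 785 and 1555 had an unadjusted p under 0.05. Within code pairs 0 of the 9 genes were higher in 3 of 3 pairs and C1qa and Cfp were lower in 3 of 3, where 20.9% and 16.9% of all genes were. The groups overlapped for all 9 genes, while 7.63% of all genes lay higher in acute hypoxia with no overlap. The median log2 difference of the 9 genes was -0.03, against 0.01 over all genes tested. Leaving out the code Z libraries, 0 of 9 genes were called while 2.95% of all genes were.

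Of the 9 genes, C1qa, C3, Cfp and Itgam were higher after 7 days in 1% oxygen than in standard oxygen in fits that paired libraries by code, and C1qa had the largest difference (1.84 ± 0.339 on the log2 scale, SE, 3 libraries a group). In the fit of these 6 libraries without the pairing none of the 9 passed. Within code pairs, 6 of the 9 genes were higher in chronic hypoxia in 3 of 3 pairs (C1qa, C1qb, C1qc, C3, Cfp and Itgam), and Cfb was lower in 3 of 3. Over all genes tested, 46.9% were higher in 3 of 3 pairs and 12.6% lower. In limma with the code block, 4 genes rose (C1qa, C3, Cfp and Itgam), 0 fell, and 15.1% of all genes rose. Without a block 0 of the 9 genes passed, and 2.69% of all genes were called in either direction. An unadjusted p under 0.05 was found for 3 of the 9, and for 2533 of all 11067 genes tested. The groups did not overlap for C3, Cfp and Itgam, which were higher in chronic hypoxia, as were 24.2% of all genes tested. The median log2 difference of the 9 genes was 0.51, against 0.16 over all genes tested. Median-of-ratios rescaling, which sets the latter to about 0 (-0.002), left a median of 0.33 for the 9 genes, and with the code block C1qa alone was then called, beside 5.53% of all genes called higher. Rescaling also moved the split of calls over all genes, from 1674 higher and 365 lower to 612 and 655 with the code block, and from 232 and 66 to 115 and 118 without one. Without the code Z libraries, 7 of the 9 genes were called higher, as were 17% of all genes.

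Marker genes of several cell types also differed within the same pairs of chronic hypoxia and standard oxygen. The macrophage marker Csf1r, the receptor for the growth factor CSF1, was higher in 3 of 3 pairs (439, 457 and 513 TPM in standard oxygen and 741, 778 and 579 TPM in chronic hypoxia, codes X, Y and Z), as was Ptprc. The macrophage marker Adgre1, the F4/80 gene, was lower in 3 of 3 (555, 581 and 488 TPM against 474, 512 and 253 TPM), as were Fcgr1, Cd14 and Spi1, so that 2 of the 9 macrophage markers were higher and 4 lower. The summed macrophage markers nevertheless covered similar ranges, 62309 to 70630 TPM in standard oxygen and 61429 to 67684 TPM in chronic hypoxia, most of it Lyz2. All 3 monocyte markers were higher in 3 of 3 pairs, with Ly6c2 at 54.6, 45.2 and 243 TPM in standard oxygen and 78.8, 60.3 and 969 TPM in chronic hypoxia, and their sum ran from 45.7 to 246 TPM and from 61.4 to 977 TPM. Of the 8 neutrophil markers, S100a8 (912, 895 and 1593 TPM against 274, 258 and 582 TPM) and Ngp were lower in 3 of 3 pairs and Camp was higher. Their sum ran from 898 to 1595 TPM in standard oxygen and from 260 to 585 TPM in chronic hypoxia, with the defining markers Ly6g, Mpo and Elane under 1 TPM in every library. The same 2 neutrophil markers were lower, and the same 3 monocyte markers higher, in 3 of 3 pairs against acute hypoxia. The part of these markers in the complement differences was not tested.

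The comparison of chronic with acute hypoxia asks how long exposure differs from short exposure. It shares its chronic libraries with the comparison above. The same 6 genes were higher in chronic hypoxia in 3 of 3 code pairs, where 43.5% of all genes were, and Cfb and C3ar1 were lower in 3 of 3, where 12.9% were. In limma with the code block these 6 genes rose, 0 fell, and 12.1% of all genes rose. Without a block 0 of the 9 passed, and 0.695% of all genes were called. An unadjusted p under 0.05 was found for 3 of the 9, and for 2305 of all 11087 genes tested. The groups did not overlap for C3, Cfp and Itgam, nor for 22.3% of all genes in this direction. With rescaling and the code block, C1qa and C1qc were called higher and C3ar1 lower, beside 4.73% of all genes higher and 5.07% lower. The split over all genes moved from 1345 higher and 379 lower to 524 and 562 with the code block, and from 61 and 16 to 33 and 48 without one. Without the code Z libraries, 6 of the 9 were called higher, as were 12.8% of all genes.

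**Figure D1:**
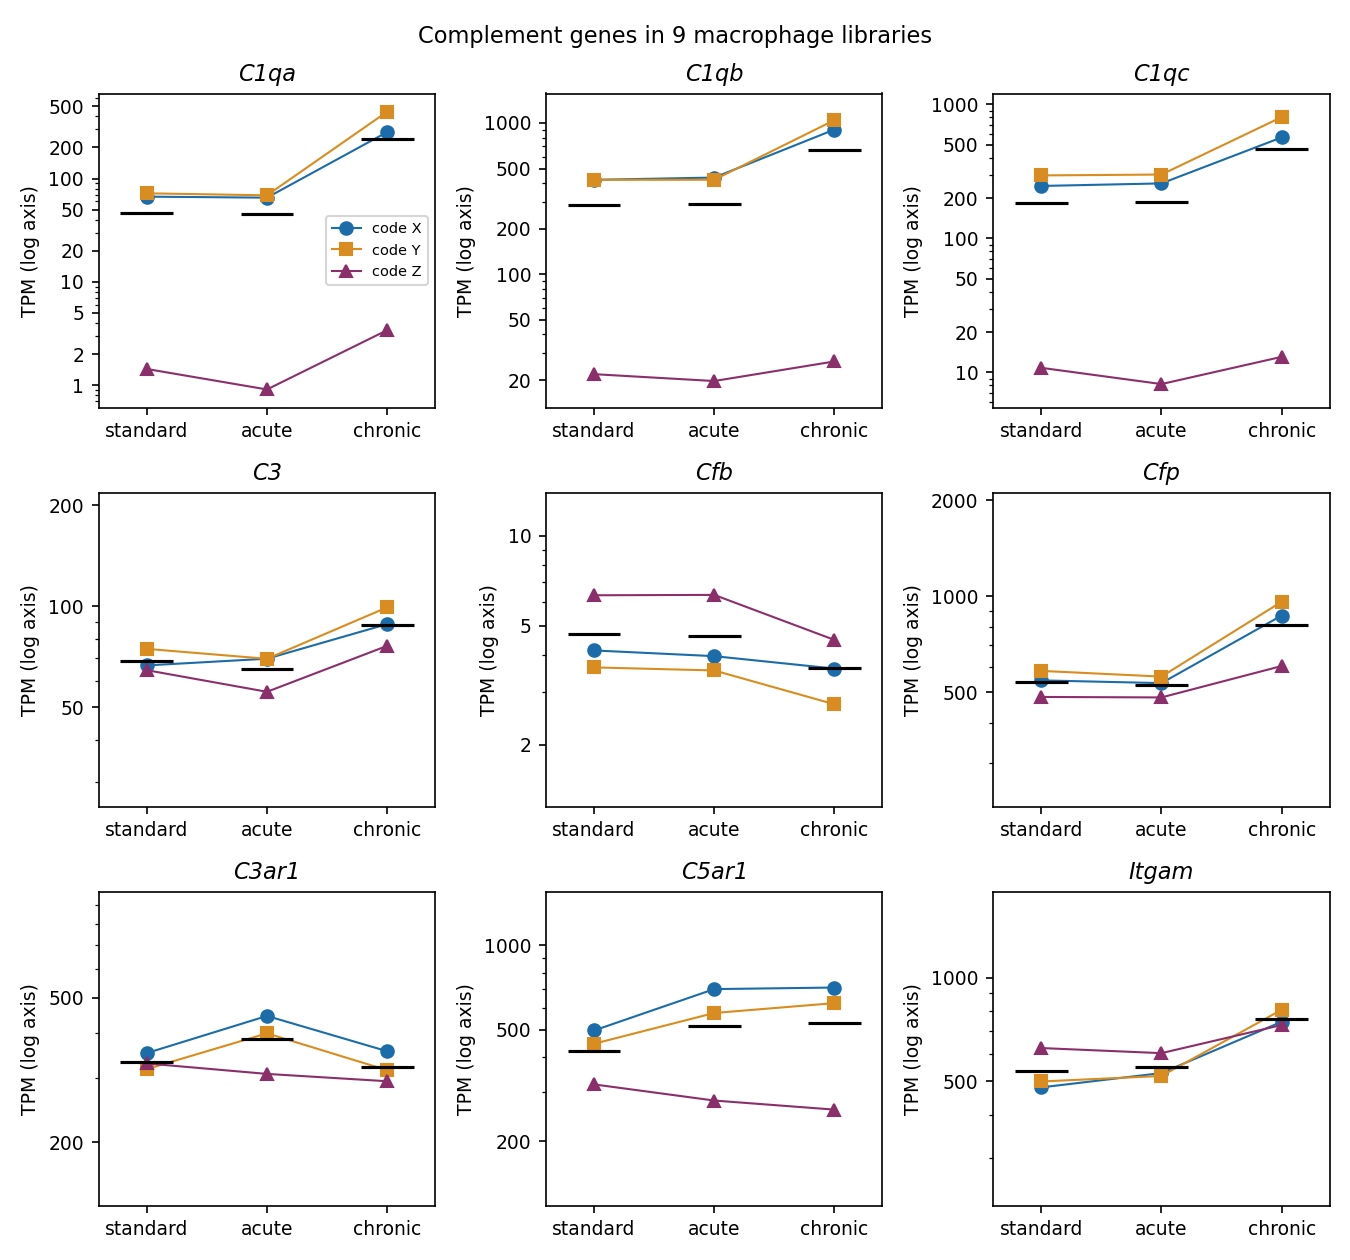
TPM on a log axis for each of the 9 genes in the standard oxygen, acute hypoxia and chronic hypoxia libraries, with lines joining libraries of the same sample code and black bars for the group means. The C1q genes of code Z lie far below those of codes X and Y in each group, and C1qa of code Z runs from 0.910 to 3.41 TPM.

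C1qa, the A chain gene, was at 66.8, 71.9 and 1.44 TPM in standard oxygen (codes X, Y and Z), at 65.3, 68.8 and 0.910 TPM in acute hypoxia, and at 281, 443 and 3.41 TPM in chronic hypoxia. The code X and Y libraries of chronic hypoxia were the highest, and the code Z library was the lowest of each group, so that the groups overlapped. The ratio of chronic hypoxia to standard oxygen was 4.21 for code X, 6.16 for code Y and 2.38 for code Z. The log2(TPM + 1) difference, which understates changes of low values such as those of code Z, was 1.84 with an SE of 2.08 without a block and 0.339 with the code block. Its adjusted p in limma was 0.0287 with the code block, 0.0436 with rescaling added, and 0.637 in the fit that had no block. Without the code Z libraries the difference was 2.33 ± 0.219 (SE, 2 libraries a group), with a limma adjusted p of 0.00465. Against acute hypoxia the chronic libraries were higher by 1.99 ± 0.270 (log2, SE) with the code block, with a limma adjusted p of 0.0157, and 0.0231 with rescaling added.

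C1qb, the B chain gene, was at 421, 421 and 21.9 TPM in standard oxygen, at 436, 421 and 19.7 TPM in acute hypoxia, and at 905, 1044 and 26.5 TPM in chronic hypoxia (codes X, Y and Z). The ratio of chronic hypoxia to standard oxygen was 2.15, 2.48 and 1.21 in the same order. All 3 pairs were thus higher, with the smallest ratio in code Z. The log2 difference was 0.89 ± 0.213 (SE) with the code block, and it did not pass there, with a limma adjusted p of 0.0501, or without a block, with 0.793. Against acute hypoxia it was 0.92 ± 0.175 (SE) with the code block, with a limma adjusted p of 0.0298, which became 0.0546 with rescaling. Without the code Z libraries C1qb was 1.21 ± 0.0882 higher than in standard oxygen (log2, SE), with a limma adjusted p of 0.00265.

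C1qc, the C chain gene, was at 247, 296 and 10.8 TPM in standard oxygen, at 258, 300.0 and 8.18 TPM in acute hypoxia, and at 568, 805 and 13.1 TPM in chronic hypoxia. Its ratio of chronic hypoxia to standard oxygen was 2.30, 2.73 and 1.21 for codes X, Y and Z. The pattern over the libraries was that of C1qb. The log2 difference from standard oxygen was 0.96 ± 0.242 (SE) with the code block, with a limma adjusted p of 0.0548, and the difference from acute hypoxia was 1.06 ± 0.158 (SE), with a limma adjusted p of 0.0182. Without a block these adjusted p-values were 0.794 and 0.795, and without the code Z libraries they were 0.0130 and 0.0153.

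The gap between the code Z libraries and the others exceeded every oxygen difference of the C1q genes. The mean of codes X and Y was 48.3-fold that of code Z for C1qa in standard oxygen, 73.7-fold in acute hypoxia and 106-fold in chronic hypoxia. For C1qb these ratios were 19.3, 21.8 and 36.7, and for C1qc they were 25.0, 34.1 and 52.5. Of 11065 genes with a mean of at least 1 TPM, 5.21% were lower in all 3 code Z libraries than in all of the other 6, and 0.551% were so by at least 10-fold in the mean, a group that held the 3 C1q genes. The other 6 genes differed less between codes. C5ar1 was lower in the 3 code Z libraries (260 to 319 TPM) than in the others (446 to 708 TPM). Cfb was higher there (4.49 to 6.35 TPM) than in the others (2.74 to 4.14 TPM), as were 14.5% of all genes. The ranges of C3, Cfp, C3ar1 and Itgam in code Z overlapped those of the others. Ly6c2 and the other monocyte markers were higher, and Mertk lower, in the same code Z libraries, and their part in these values was not tested. In such bulk samples fewer cells that make C1q and less C1q RNA per cell cannot be told apart.

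The 3 chains are assembled in equal number in the C1q protein, and their transcripts were not equal in TPM. C1qb exceeded C1qa by 6.30-fold, 5.85-fold and 15.2-fold in standard oxygen and by 6.67-fold, 6.13-fold and 21.6-fold in acute hypoxia (codes X, Y and Z). In chronic hypoxia this ratio was 3.21, 2.36 and 7.78, lower than in standard oxygen in 3 of 3 pairs by a factor of 0.510, 0.403 and 0.511. The ratio of C1qc to C1qa moved likewise, by 0.547, 0.442 and 0.508 in the same pairs. The ratio of C1qb to C1qc moved by 0.933, 0.910 and 1.01, so C1qa differed more between chronic hypoxia and standard oxygen than the other chains did in each pair. In code Z the ratios to C1qa rest on low C1qa values of 0.910 to 3.41 TPM at unknown depth, so that pair is less certain. These ratios within a library do not depend on the scaling of the library, and they are given with no test. Together the 3 transcripts held 0.0734% and 0.0788% of the TPM in standard oxygen and 0.175% and 0.229% in chronic hypoxia (codes X and Y), against 0.00341% and 0.0043% in code Z.

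**Figure D2:**
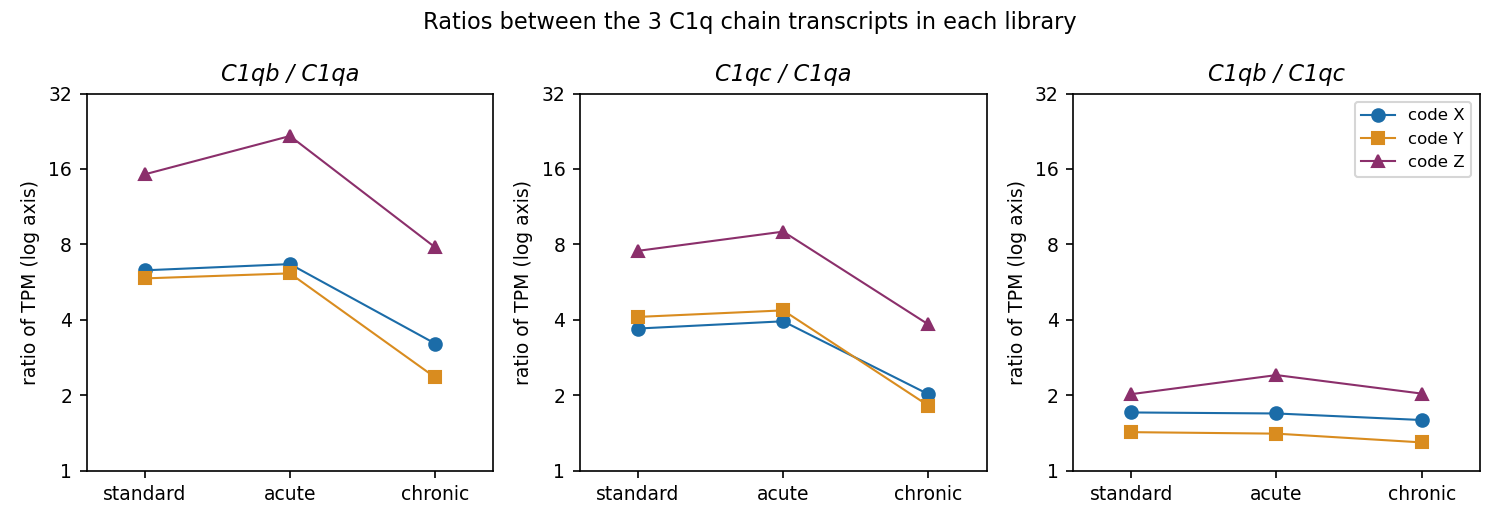
Ratios of TPM between C1qb and C1qa, C1qc and C1qa, and C1qb and C1qc in each library, on a log axis with base 2, with lines joining libraries of the same sample code. The first and second ratios are lower in chronic hypoxia than in standard oxygen for each code, for example 3.21 against 6.30 for C1qb over C1qa in code X.

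C3, the central component, was at 66.7, 74.7 and 64.5 TPM in standard oxygen, at 69.8, 69.8 and 55.6 TPM in acute hypoxia, and at 88.5, 99.3 and 76.3 TPM in chronic hypoxia (codes X, Y and Z). Every chronic library was above every library of the other groups. The log2 difference of chronic hypoxia from standard oxygen was 0.35 ± 0.0711 (SE) with the code block, with a limma adjusted p of 0.0354, and 0.175 without a block. After rescaling it was 0.17 with a limma adjusted p of 0.174 with the code block. The difference from acute hypoxia was 0.43 ± 0.0722 (SE) with the code block, with a limma adjusted p of 0.0234, which became 0.0695 with rescaling.

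Cfp, which encodes properdin, was at 544, 583 and 483 TPM in standard oxygen, at 534, 559 and 481 TPM in acute hypoxia, and at 869, 960 and 604 TPM in chronic hypoxia. The chronic libraries did not overlap either other group, and the ratio to standard oxygen was 1.60, 1.65 and 1.25 for codes X, Y and Z. The log2 difference from standard oxygen was 0.57 ± 0.102 (SE) with the code block, with a limma adjusted p of 0.0269 there, 0.149 in the unblocked fit and 0.0707 after rescaling. The difference from acute hypoxia was 0.60 ± 0.107 (SE), with a limma adjusted p of 0.0267 in the code block fit, 0.153 in the unblocked fit and 0.0632 after rescaling. Cfp thus exceeded C3 by 7.48-fold to 9.81-fold over the 9 libraries.

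Cfb, which encodes factor B, was at 4.14, 3.63 and 6.33 TPM in standard oxygen, at 3.96, 3.55 and 6.35 TPM in acute hypoxia, and at 3.60, 2.74 and 4.49 TPM in chronic hypoxia. Its groups overlapped, and the code Z library was the highest of each group, while the chronic library was the lowest of each code. The log2 difference of chronic hypoxia from standard oxygen was -0.30 ± 0.128 (SE) with the code block, with a limma adjusted p of 0.163, and -0.44 with a limma adjusted p of 0.0928 after rescaling. It did not pass in any fit, and as said most of its exon bases are shared with Gm20547.

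C5ar1, the C5a receptor gene, was at 497, 446 and 319 TPM in standard oxygen, at 699, 574 and 280 TPM in acute hypoxia, and at 708, 623 and 260 TPM in chronic hypoxia (codes X, Y and Z). In codes X and Y both hypoxia libraries were above the standard oxygen library, while in code Z both were below it. The acute difference within a pair was thus 0.49, 0.36 and -0.19 on the log2 scale, and the chronic difference was 0.51, 0.48 and -0.30. In limma with the code block, the adjusted p was 0.545 for acute and 0.393 for chronic hypoxia against standard oxygen. Without the code Z libraries the chronic difference was 0.49 ± 0.0968 (SE), with a limma adjusted p of 0.0279, and the acute one was 0.43 ± 0.118 (SE), with a limma adjusted p of 0.146. Whether the response differs between codes was not tested.

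C3ar1, the C3a receptor gene, was at 352, 318 and 330 TPM in standard oxygen, at 446, 399 and 309 TPM in acute hypoxia, and at 356, 316 and 295 TPM in chronic hypoxia. The acute libraries of codes X and Y were the highest of all 9, and chronic hypoxia was close to standard oxygen in both of these codes, with ratios of 1.01 and 0.993. The acute difference within a pair was 0.34, 0.33 and -0.10 on the log2 scale for codes X, Y and Z. Its mean of 0.19 ± 0.104 (SE) had a limma adjusted p of 0.473 with the code block. Chronic hypoxia was lower than acute hypoxia in 3 of 3 pairs, by -0.24 ± 0.0827 (log2, SE), with a limma adjusted p of 0.104 with the code block and 0.0492 (difference of -0.40) with rescaling added. C5ar1 exceeded C3ar1 in the codes X and Y by 1.40-fold to 1.98-fold, and in code Z it was at 0.881 to 0.968 of C3ar1.

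Itgam, the CD11b gene, was at 481, 500.0 and 625 TPM in standard oxygen, at 529, 519 and 604 TPM in acute hypoxia, and at 744, 807 and 729 TPM in chronic hypoxia. Each chronic library was above all 6 others. The log2 difference from standard oxygen was 0.51 ± 0.113 (SE) with the code block, with a limma adjusted p of 0.0413 there, 0.0933 in the unblocked fit and 0.119 after rescaling. The difference from acute hypoxia was 0.47 ± 0.0919 (SE), with a limma adjusted p of 0.0327 in the code block fit, 0.0962 in the unblocked fit and 0.0947 after rescaling. Itgb2, which encodes the beta chain that pairs with CD11b, ranged from 894 to 993 TPM in the standard oxygen and acute libraries and from 1038 to 1109 TPM in the chronic ones, and its difference from standard oxygen of 0.21 (log2) became 0.03 after rescaling, where the code block fit in limma gave an adjusted p of 0.0977 before and 0.788 after.

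**Figure D3:**
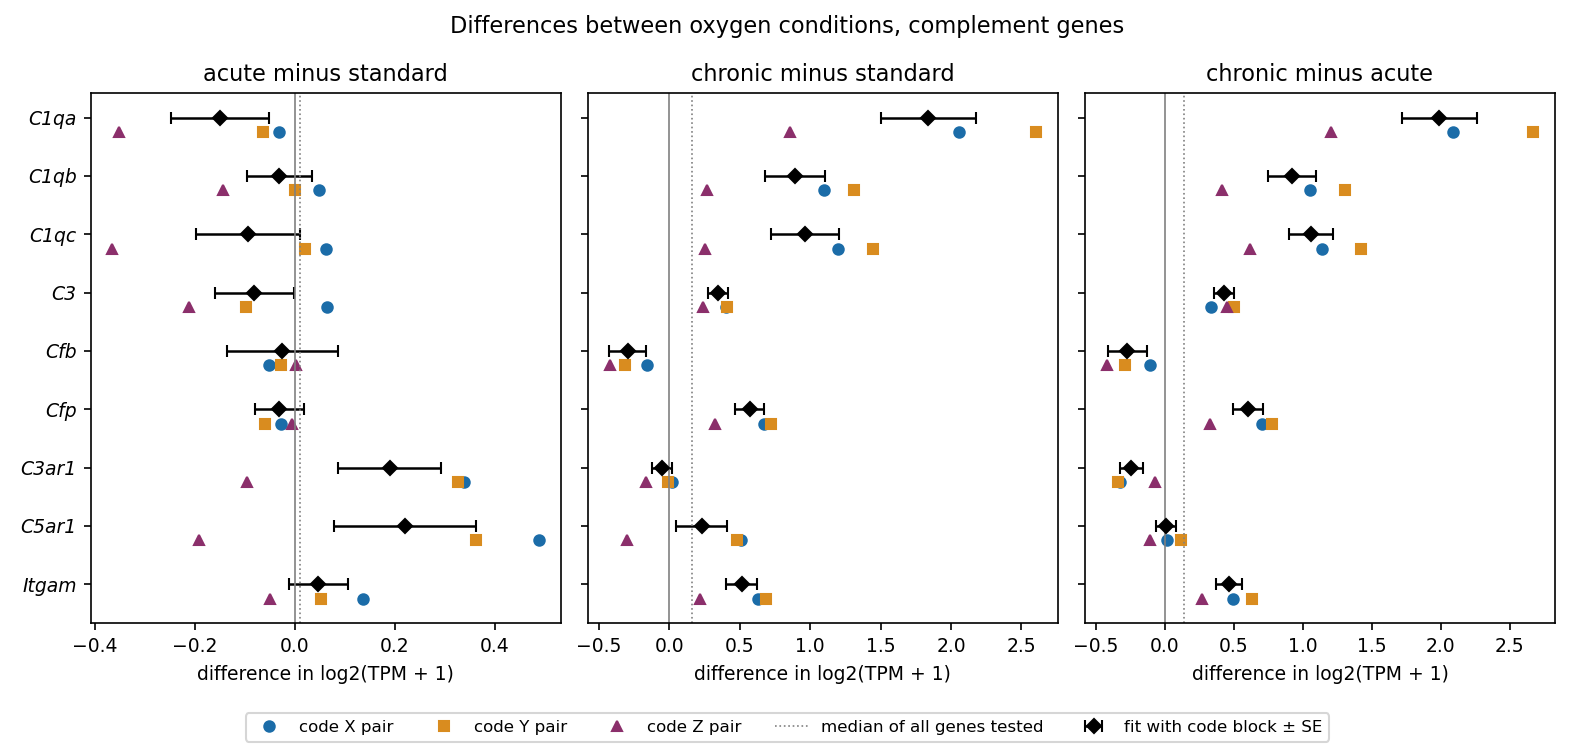
Differences in log2(TPM + 1) for acute minus standard, chronic minus standard and chronic minus acute, with a scale of its own in each panel. Coloured points are the code pairs, diamonds and bars the limma estimate with the code block and its SE, and the dotted line the median of all genes tested (0.01, 0.16 and 0.14). C1qa lies farthest from 0 in both panels of chronic hypoxia (1.84 and 1.99). The code Z point is below those of codes X and Y in both for C1qa, C1qb, C1qc, Cfb, Cfp, C5ar1 and Itgam.

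The rest of the complement system was taken from 4 lists of 50 genes (classical and lectin pathway, alternative and terminal pathway, regulators, and other receptors with partners), of which 49 were listed. Of these, 29 were listed under 1 TPM in every library. For 12 of the 29 the listed value was 0 throughout, which may be a failed estimate as for S100a9 and is not read as a low level. Among the 12 were the genes of factor D (Cfd), C5 (Hc), C7, factor I (Cfi) and the C1 inhibitor (Serping1). The genes of the C1r and C1s proteases, which act with C1q, had low values above 0, with C1ra at 1.32 to 3.00 TPM and C1s1 at 0.0253 to 0.798 TPM. C2 was at 0.489 to 3.05 TPM and C4b at 0.0985 to 1.19 TPM. The most abundant gene within each list was Itgb2 among the receptors and partners (mean 982 TPM, followed there by Calr with 419 TPM), Colec12 in the classical and lectin list (a collectin scavenger receptor, mean 200 TPM), Cr1l among the regulators (the membrane regulator Crry, mean 83.5 TPM) and C8g in the alternative and terminal list (mean 3.84 TPM).

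Of these 50 genes, 18 were tested in each comparison. In acute hypoxia 0 of 18 passed in limma without a block or with the code block, with 0 and 1 at an unadjusted p under 0.05. Over all 10987 genes tested 0.0273% and 0.71% passed, and 785 and 1555 had an unadjusted p under 0.05. In chronic hypoxia against standard oxygen, C5ar2, the second C5a receptor gene, alone passed without a block, beside 2.69% of all genes called in either direction. With the code block 4 of 18 rose (C5ar2, Calr, Colec12 and Cr1l) and 0 fell, beside 15.1% of all genes that rose and 3.3% that fell. The median log2 difference of the 18 was 0.18, close to the 0.16 of all genes. Against acute hypoxia 3 of 18 rose with the code block (Calr, Colec12 and Cr1l), beside 12.1% of all genes. Without a block 0 of 18 passed, beside 0.695% of all genes. There 3 of 18 had an unadjusted p under 0.05, beside 2305 of all 11087 genes tested. With rescaling added to the code block Calr alone stayed called in that comparison, beside 4.73% of all genes called higher. The limma adjusted p became 0.0580 for Colec12 and 0.123 for Cr1l.

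C5ar2 was at 1.62, 1.37 and 2.25 TPM in standard oxygen, at 2.77, 3.27 and 2.08 TPM in acute hypoxia, and at 4.32, 4.85 and 6.02 TPM in chronic hypoxia (codes X, Y and Z). The chronic libraries were the highest, also in code Z, where C5ar1 was lowest in chronic hypoxia. The log2 difference from standard oxygen was 1.15 ± 0.202 (SE) without a block, with a limma adjusted p of 0.0442, and 0.0149 with the code block and 0.0228 with rescaling added. Calr, which encodes calreticulin, a chaperone that also binds C1q at the cell surface, was at 282 to 502 TPM in standard oxygen and 496 to 602 TPM in chronic hypoxia. Its log2 difference with the code block was 0.67 ± 0.146 (SE) against standard oxygen and 0.74 ± 0.101 (SE) against acute hypoxia, and the limma adjusted p was 0.0408 and 0.0160, values that became 0.0952 and 0.0315 with rescaling. Colec12 was higher by 0.54 ± 0.0970 and Cr1l by 0.42 ± 0.0684 (log2, SE) against standard oxygen with the code block, where limma gave adjusted p-values of 0.0276 for Colec12 and 0.0235 for Cr1l. With rescaling added these were 0.0873 and 0.0830. Like the C1q genes, Colec12 was lower in the code Z libraries (65.1 to 113 TPM) than in the others (214 to 325 TPM).

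**Figure D4:**
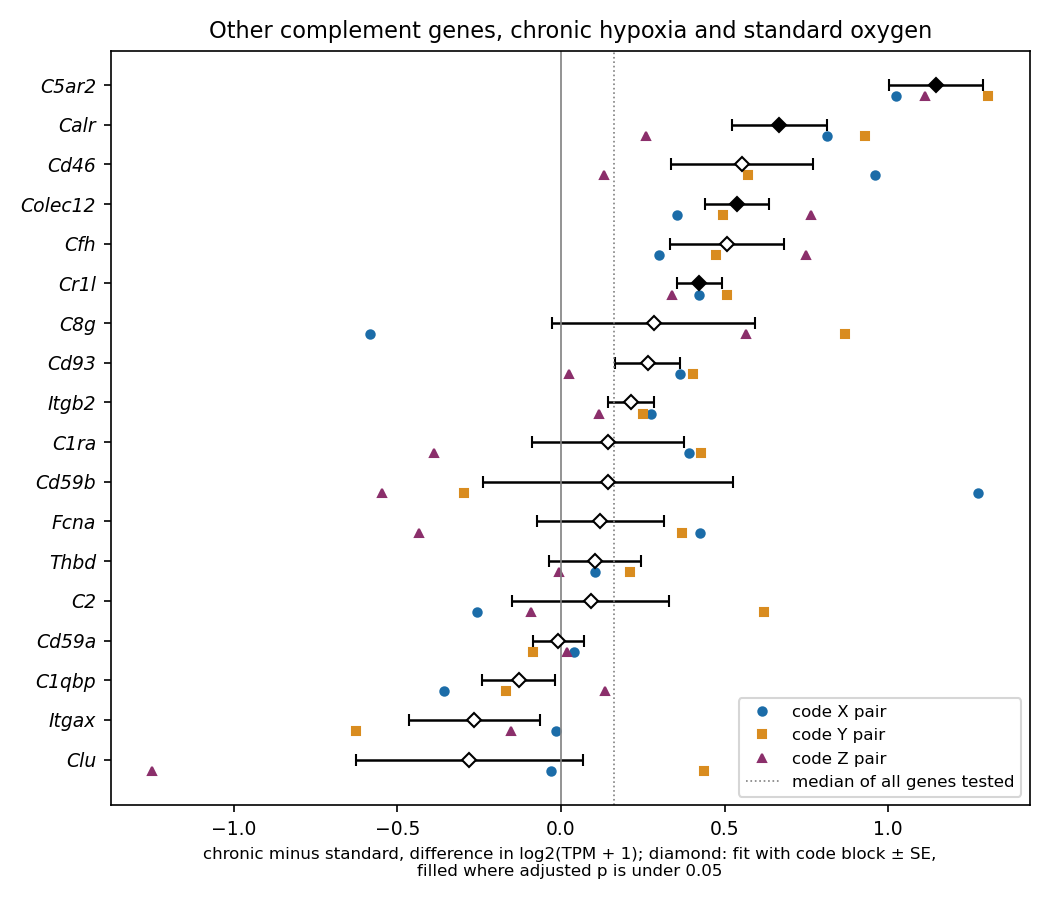
Chronic minus standard differences in log2(TPM + 1) for the 18 tested genes of the wider complement lists, sorted by size. Diamonds and bars are the limma estimate with the code block and its SE, filled where the adjusted p is under 0.05, coloured points are the code pairs, and the dotted line is the median of all genes tested (0.16). C5ar2 is highest (1.15), and the filled diamonds are those of C5ar2, Calr, Colec12 and Cr1l.

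The genes most like each complement gene over the 9 libraries were sought among 7107 genes with a mean of at least 10 TPM, by Pearson r of log2(TPM + 1). The 9 points share 3 codes and 3 conditions, so these values are descriptions. C1qb and C1qc were most like each other (r = 0.999), followed by Plxnb2 and Stard8 for both (0.993 to 0.996). C1qa was most like Slc9a9 (0.996), Stard8 (0.994) and Pltp (0.993). For C3 the nearest was Cryl1 (0.994), for Cfp Lmo2 (0.990), for C5ar1 Twf1 (0.988), for Itgam Pecam1 (0.987), for Cfb Serpinb9b (0.974) and for C3ar1 Pid1 (0.909). Among the 9 genes themselves, C3 and Cfp went together (0.949), as did C5ar1 and the C1q genes (0.910 to 0.935), whereas r between Itgam and the C1q genes ran from -0.07 to 0.07.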

How the data were processed

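The deposited values are TPM, in 3 tables that each hold the 6 samples of a pair of groups. FastQC, STAR and featureCounts and the build GRCm38 are named in the submitters' processing notes, without versions, and the annotation and the TPM calculation are not given in the sources used here. Each column summed to 1000000 TPM, and all 9 samples were identical in both tables that held them. TPM keeps no depth, so no count test was used and the replicate spread is the only error.

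Symbols were matched by identifier (34582 of 34866). For each comparison limma 3.58.1 (R 4.3.3, lmFit and eBayes with trend, two-sided) was run on log2(TPM + 1) of its 6 samples, over genes that had a mean of at least 1 TPM. Benjamini-Hochberg adjusted p-values under 0.05, over all genes tested, were called. Fits with the code as a block are given beside this one. The reason was that every code pair correlated in its deviations from the group means (r of 0.37 to 0.63). Only libraries sharing a code or a title number were correlated, so pairing within codes X and Y cannot be told from the offset of code Z. The title numbers gave the same pairs as the codes for chronic against acute hypoxia only. The replicates may not be separate animals, so p-values measure only the spread between these samples. With the code block that spread is the one left among differences within codes. In every fit eBayes moderates it over all genes. The limma script was tested on simulated data without code differences, for the fit without a block only. It recovered 67 to 69 of 100 changes of 2-fold and 87 to 91 of 100 changes of 4-fold, and made 7 to 10 other calls in each comparison. The changes were set only in genes with a mean of at least 10 TPM, so genes as low as Cfb were not covered. The code block fits were not tested in this way.

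The 9 genes, the lists and the alternatives were chosen with earlier results of these data known. The genes named were all 9, the most abundant gene of each wider list and those called there without a block or with the code block, and the genes most like each of the 9. The low or zero complement genes (C1ra, C1s1, C2, C4b, Cfd, Hc, C7, Cfi and Serping1) were picked after their values were seen. Alternatives were pseudocounts, filters, rescaling, eBayes without trend, all 9 samples in 1 fit, both blocks, and libraries left out.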

Additional observations from a re-analysis of the deposited data

How the results depend on the processing

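Of 456 refits of the 9 genes, 385 kept their direction and side of the threshold, 37 passed where the fit without a block did not, and 34 changed direction, all but 5 of them on leaving out 1 library. C1qb and C1qc in acute hypoxia became 0.0257 and 0.0423 (log2) without the code Z libraries, where C3ar1 in chronic hypoxia against standard oxygen became 0.0036, and C5ar1 in chronic against acute hypoxia became -0.148 with rescaling, without or with the code block. The cause was not tested.

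For acute hypoxia against standard oxygen, 0 of the 9 genes were called in each of the alternatives run. The count over all genes of 3 became 21 with rescaling, 5 without the trend, 25 with all 9 samples, 0 with the title number as a replicate block, 78 with the code block, 54 with code block and rescaling, and 319 without the code Z libraries. The title block left 579 genes at an unadjusted p under 0.05. For chronic hypoxia against standard oxygen, 298 became 120 without a filter, 166 without the trend, 770 with all 9 samples, 1 with the title block, 2039 with the code block, 1267 with rescaling added, and 2300 without code Z. Of the 9 genes, 0 were called without a block, 1 with all 9 samples (Itgam), 4 with the code block, 1 with rescaling added and 7 without code Z. For chronic against acute hypoxia, 77 became 7 without a filter, 25 without the trend, 417 with all 9 samples, 1724 with either block, 1086 with rescaling added and 1788 without code Z. Of the 9 genes, 0 became 6 with either block, 3 with rescaling added and 6 without code Z.

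Leaving out 1 library at a time, the counts over all genes ran from 0 to 33, 1 to 522 and 1 to 308 in the order above, with 0 to 1 of the 9 genes called in each chronic comparison. In acute hypoxia against standard oxygen the log2 differences that changed sign ran from -1.77 to 1.57 for C1qa, -1.43 to 1.43 for C1qb, -1.6 to 1.55 for C1qc, -0.135 to 0.0266 for C3, -0.234 to 0.171 for Cfb, -0.105 to 0.0307 for Cfp, -0.0458 to 0.613 for C5ar1 and -0.0251 to 0.164 for Itgam. In chronic hypoxia against standard oxygen the log2 differences that changed sign ran from -0.509 to 2.61 for C1qb, -0.541 to 2.83 for C1qc, -0.126 to 0.0107 for C3ar1 and -0.041 to 0.68 for C5ar1. In chronic hypoxia against acute hypoxia the log2 differences that changed sign ran from -0.535 to 2.64 for C1qb, -0.583 to 2.92 for C1qc and -0.383 to 0.459 for C5ar1.
Against standard oxygen title number 1 joined libraries of code X (r of 0.39 in both comparisons). Title numbers 2 and 3 joined codes Y and Z there (r of -0.47 and -0.28 in acute, -0.51 and -0.28 in chronic hypoxia). The counts blocked by title number there are thus no sign of a weaker effect. In the unblocked fit the calls of Itgam and Cfp depend on 1 library: Itgam was called against standard oxygen without standard oxygen replicate 2 (limma adjusted p of 0.0409), and Cfp without chronic hypoxia replicate 3 (0.0328, and 0.0341 against acute hypoxia), both of code Z.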
